A study of Mus musculus with 6 samples.

Results

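Collagen chains were followed in skeletal muscle of PRR14-knockout mice that had received a viral vector. They were taken as the rows of the gene table whose symbol has the form of a collagen chain (Col, a type number, the letter a and a chain number) and that held at least 5 counts over all libraries. The rule found 36 collagen genes among the 22036 gene rows: 11 chains of fibrillar collagens, 8 of basement membrane collagens, 4 of type VI collagen and 13 of other classes. A further 8 collagen rows held fewer than 5 counts. Col17a1, with 3 counts, lay just outside the minimum, and Col7a1, with 6 counts, lay just inside it.

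The series concerns PRR14, a nuclear protein, and the transcription factor MEF2C in muscle mass and function. All 6 libraries carry the genotype KO, and the tissue was taken 1 month after an adeno-associated virus (AAV) was given. In 3 libraries the treatment was MEF2C-GFP (called MEF2C here) and in 3 it was GFP, the green fluorescent protein used as the control cargo. The muscle, the age and sex of the mice and the promoter that drives the cargo are not stated in the labels. The labels also do not say whether the replicates are separate animals, so p-values measure the spread between these samples, which may be technical. No wild-type or uninjected library was analysed here, and the loss of PRR14 is therefore common to both groups.

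Collagens are proteins of the extracellular matrix built from chains that wind around each other into a triple helix, which needs a glycine at every turn of the repeat. Fibrillar collagens, chiefly types I and III, form the fibres of the connective tissue between muscle fibres, whereas the network of type IV lines each muscle fibre as its basement membrane and the beaded filaments of type VI link the matrix to that membrane. In muscle these chains come largely from fibroblasts and fibro-adipogenic cells rather than from the muscle fibres, and excess fibrillar collagen is the hallmark of fibrosis.

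The fibrillar class stands apart in the coding sequence itself. In the coding sequences built from GENCODE vM21 (GRCm38), codons of the form GGN, which encode glycine, were searched at the head of each triplet of codons. Stretches of 18 codons from inside the longest run of the repeat are shown for the 3 most abundant fibrillar chains, with the glycine codons in capitals, to show the unbroken pattern. They span codons 468 to 485 of Col1a1, 397 to 414 of Col1a2 and 464 to 481 of Col3a1.

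Col1a1: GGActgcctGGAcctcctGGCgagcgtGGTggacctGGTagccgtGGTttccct

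Col1a2: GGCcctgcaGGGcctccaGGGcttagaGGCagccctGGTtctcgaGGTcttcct

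Col3a1: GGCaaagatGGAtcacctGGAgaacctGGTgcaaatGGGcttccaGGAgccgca

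In Col4a1 of the basement membrane and Col6a3 of type VI, the repeat is broken. The next stretches show the end of the longest run of each, the break and the start of the following run, and only the glycine codons that head a triplet of a run are in capitals. The break is 10 codons long in Col4a1 (codons 154 to 181 shown) and 2 codons long in Col6a3 (codons 1684 to 1703 shown).

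Col4a1: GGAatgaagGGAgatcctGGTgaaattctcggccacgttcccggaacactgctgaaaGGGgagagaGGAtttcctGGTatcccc

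Col6a3: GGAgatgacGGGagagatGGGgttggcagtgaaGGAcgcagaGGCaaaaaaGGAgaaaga

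Over the 36 genes, the longest unbroken run held 216 to 344 triplets in fibrillar chains (median 338), 30 to 66 in basement membrane chains (median 41), 42 to 87 in type VI chains and 23 to 113 in the other classes. Col3a1 had the longest run, of 344 triplets, against 339 in Col1a2 and 338 in Col1a1. The fibrillar chains with shorter runs were Col27a1 (217 triplets) and Col24a1 (216 triplets). No chain outside the fibrillar class reached the shortest fibrillar run.

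**Figure D1:**
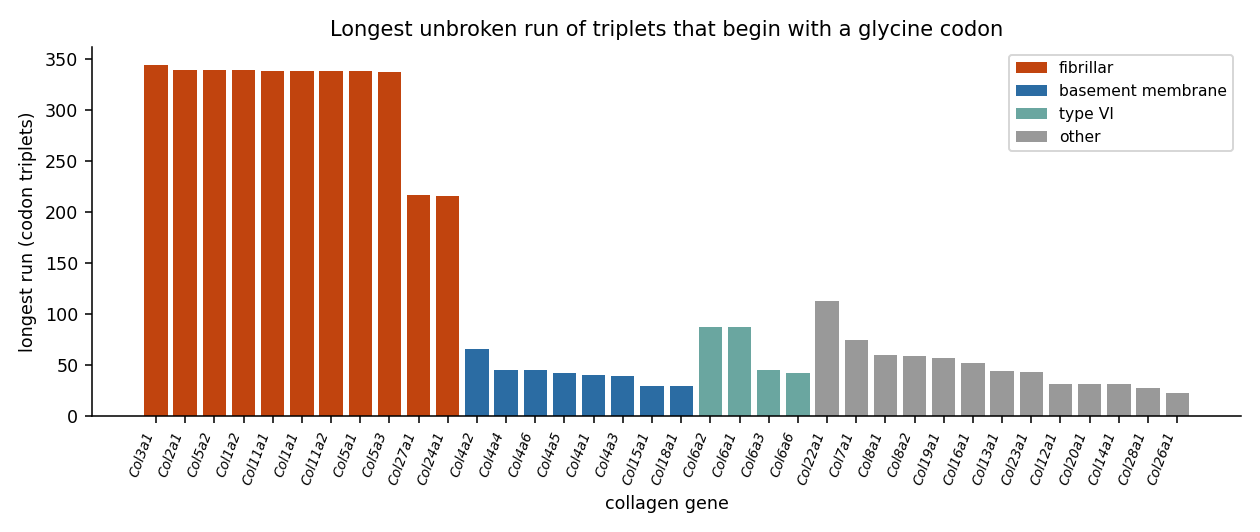
Longest unbroken run of codon triplets that begin with a glycine codon (vertical axis, number of triplets) in each of the 36 collagen genes (horizontal axis), coloured by class. Fibrillar chains reach 216 to 344 triplets, and the longest run outside that class is the 113 triplets of Col22a1.

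Libraries were made from total RNA by Oxford Nanopore sequencing of PCR-amplified cDNA, a method aimed at full-length copies, and each value is a count of reads per gene. The genes listed held between 3370833 and 3900617 counts in a library, and 3 counts, the limit that a count of 0 allows, came to between 0.769 and 0.890 CPM (counts scaled to a common library total). Collagen rows took between 0.128% and 0.222% of the listed counts, and the 36 genes held 38742 counts in all. Values below are CPM normalised by the trimmed mean of M-values (TMM) unless counts are named, and values of the 3 libraries of a group stand in the order of replicates 1, 2 and 3. The reads carry no molecular identifiers, so intervals and limits cover counting error only.

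Mef2c, the gene of the cargo, stood at 234, 196 and 371 CPM in the libraries labelled MEF2C and at 223, 261 and 236 CPM in the GFP libraries. It lay above every GFP library in MEF2C replicate 3 only (log2 fold change 0.15 ± 0.22, SE; edgeR adjusted p = 0.993). Directions below are therefore given for the libraries labelled MEF2C. MEF2C replicate 1 also stood apart by markers of other tissues. The 8 granulocyte markers had a sum of 1205 CPM in it, of 74.5 CPM in GFP replicate 3 and of 2.87 to 4.98 CPM in the other 4 libraries. The 11 bone markers summed to 394 CPM in MEF2C replicate 1, to 120 in MEF2C replicate 2 and to 12.7 to 35.2 in the other 4, with the bone regulator Sp7 at 0 counts in all 6. Tendon markers summed to 929 CPM in MEF2C replicate 1 and to 351 to 568 CPM in the other 5 libraries. The sum of the 12 fibroblast markers was lowest in MEF2C replicate 1, at 3754 CPM against 4145 to 4594 CPM. Gsn gave 1907 CPM of that sum. Pdgfra, Dcn, Dpt, Ly6a, Clec3b and Dpep1 were each lower in another library, and Ly6a was highest in MEF2C replicate 1 (275 CPM). The text gives the values that move most, or turn, when this or another library is left out, and the plot of fold changes shows all 20 tested collagen genes without MEF2C replicate 1. The tissue label was met by the 7 markers of muscle fibres, which summed to 126463 to 139443 CPM in the libraries labelled MEF2C and to 159508 to 189533 CPM in the GFP libraries. Of these 7, 6 had a negative log2 fold change and Mylpf was called lower (edgeR adjusted p = 0.0189). The 10 smooth muscle and pericyte markers summed to 1004 to 1095 CPM and 787 to 995 CPM. Neither sum overlapped between the groups, and their part in the collagen values was not tested.

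Of the 36 collagen genes, 20 had enough reads to be tested and none was called, with edgeR adjusted p between 0.808 and 0.998. Over all 9229 genes tested, 7 were called at an adjusted p under 0.05 (0.0758%), 3 of them higher in the libraries labelled MEF2C (0.0325%) and 4 lower (0.0433%), so a count of 0 among 20 is near the background. At an unadjusted p under 0.05 there were 2 collagen genes of 20, Col16a1 (higher in the libraries labelled MEF2C) and Col4a5 (lower), where all genes gave 5.71%. No collagen gene was called by limma-voom, nor by the DESeq2 Wald test among the 13 to which it gave an adjusted p. It gave none to the other 7, Col16a1 and Col4a5 among them. The 3 libraries of each group did not overlap for 3 of the 20 genes, Col5a2, Col16a1 and Col4a5, which is 15% against 11.1% of all genes tested. Col5a2 and Col16a1 were higher in the libraries labelled MEF2C, as 5.75% of all genes were without overlap, and Col4a5 was lower, as 5.33% were.

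Log2 fold changes were positive for 10 of the 20 tested genes and negative for 10, where 52.2% of all genes tested were positive. Their median was 0.02, and that of all genes tested was 0.01. Without MEF2C replicate 1, 16 of 21 tested collagen genes had a positive value and their median was 0.28, and none was called. The median of all genes tested was 0.0076 in that setting. With library totals in place of TMM, 16 of 20 were positive and their median was 0.16, while the median of all genes tested moved to 0.14. By class, the medians were 0.22 for the fibrillar chains (5 of 7 positive), -0.20 for the basement membrane chains (1 of 5 positive), -0.06 for type VI (1 of 4 positive) and 0.64 for the other classes (3 of 4 positive). Single libraries moved these medians. The fibrillar median was 0.0079 without MEF2C replicate 2 and 0.38 without MEF2C replicate 1, and the basement membrane median was -0.040 without MEF2C replicate 1 and -0.070 without GFP replicate 2. The type VI median was -0.22 without MEF2C replicate 3, 0.06 without MEF2C replicate 1 and 0.07 with library totals in place of TMM, and that of the other classes was 0.40 without MEF2C replicate 2 and 1.00 without MEF2C replicate 1. The values describe these lists and carry no test.

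**Figure D2:**
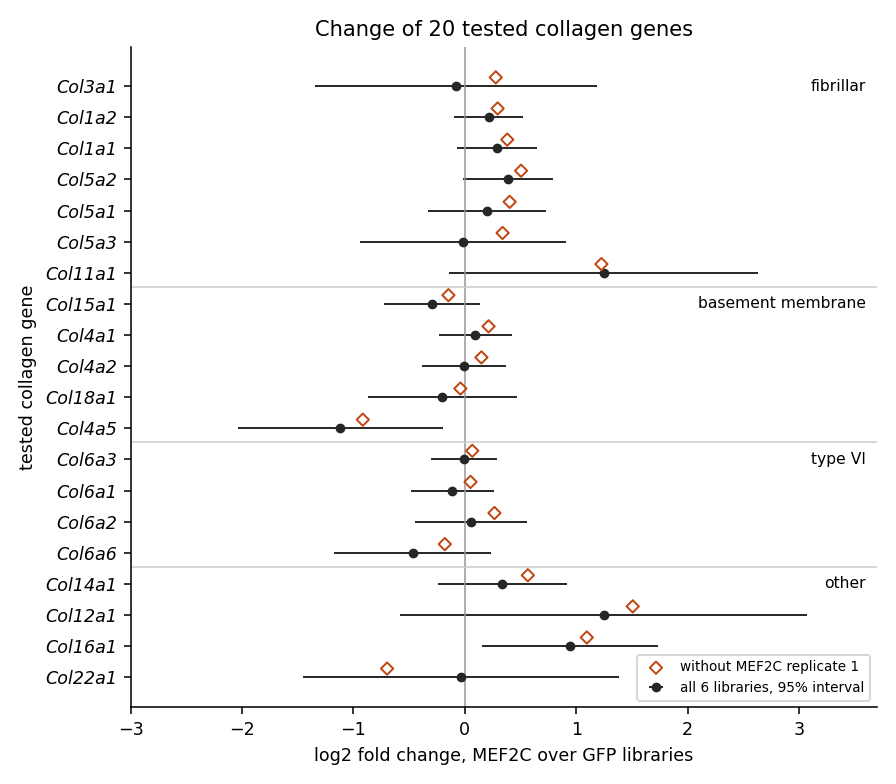
Log2 fold change of the libraries labelled MEF2C over the GFP libraries (horizontal axis) for the 20 tested collagen genes (vertical axis), grouped by class. Filled circles with 95% intervals use all 6 libraries and open diamonds leave out MEF2C replicate 1; Col3a1 moves from -0.08 to 0.28, and only the intervals of Col4a5 and Col16a1 lie to one side of 0.

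Type I collagen, the main tensile fibre of muscle connective tissue, is assembled from the products of Col1a1 and Col1a2. Col1a2 (chr6:4504814-4541544, GRCm38, plus strand) stood at 288, 360 and 334 CPM in the libraries labelled MEF2C and at 325, 292 and 230.0 CPM in the GFP libraries. The groups overlapped, with means of 327 ± 36.2 and 282 ± 48.1 CPM (SD, n = 3 per group). Its log2 fold change was 0.22 ± 0.15 (SE, edgeR adjusted p = 0.951), and 0.084 without GFP replicate 3.

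Col1a1 (chr11:94936224-94953042, plus strand) gave 178, 262 and 179 CPM in the libraries labelled MEF2C and 193, 150 and 165 CPM in the GFP libraries. MEF2C replicate 2 was the highest of the 6, and the other 2 of its group fell within the GFP range (log2 fold change 0.29 ± 0.17, edgeR adjusted p = 0.928). Without MEF2C replicate 2 the value was 0.077. Summed over both genes, type I came to 534 ± 79.8 CPM in the libraries labelled MEF2C and 451 ± 61.9 CPM in the GFP libraries (SD, n = 3 per group). Reads of Col1a1 per read of Col1a2 ranged from 0.513 in GFP replicate 2 to 0.728 in MEF2C replicate 2, and the group means were 0.627 ± 0.0962 and 0.607 ± 0.102.

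Type III collagen, a homotrimer of the Col3a1 product that mixes with type I in pliable fibres, held the pattern that set 1 library apart. Col3a1 (chr1:45311538-45349706, plus strand) stood at 209 CPM in MEF2C replicate 1, at 632 and 608 CPM in the other 2 of its group, and at 614, 475 and 441 CPM in the GFP libraries. The low library thus had 0.473 of the level of the next lowest. The groups overlapped, with means of 483 ± 238 and 510 ± 91.2 CPM (SD, n = 3 per group). The log2 fold change was -0.08 ± 0.48, with a 95% interval of -1.34 to 1.18 (edgeR adjusted p = 0.995), and it was 0.28 without MEF2C replicate 1.

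Type I did not share the low value. Reads of Col3a1 per read of Col1a2 were 0.724 in MEF2C replicate 1 (95% interval 0.661 to 0.793) and 1.63 to 1.92 in the other 5 libraries, whose intervals began at 1.5 or higher. Per kilobase of transcript the same ratio was 0.696 in MEF2C replicate 1 and reached 1.84 elsewhere. Among the 1613 genes tested with a mean of at least 200 counts, none had a lower level in MEF2C replicate 1 relative to the lowest of the other libraries. Among 7134 genes with a mean of at least 20 counts, 14 were at or below the Col3a1 value, itself included. The 200-count minimum was chosen after the value was seen. The same library had the highest bone and granulocyte sums (394 and 1205 CPM) and the lowest fibroblast sum (3754 CPM). Not every fibroblast marker was lowest there, as given above. The part of these lists in the value was not tested. Bone markers came next in MEF2C replicate 2 (120 CPM), where Col3a1 was highest, and granulocyte markers in GFP replicate 3 (74.5 CPM). In bulk tissue, fewer cells of a type and less RNA per cell cannot be told apart.

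**Figure D3:**
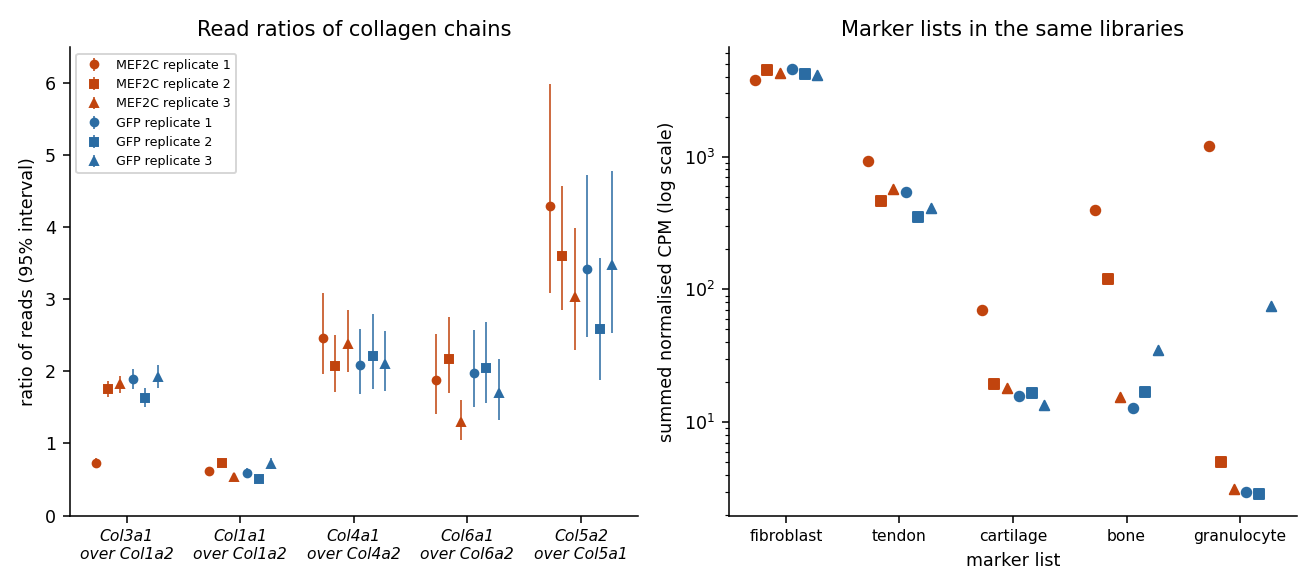
Left, ratio of reads between pairs of collagen chains in each library (points, with 95% intervals from counting error); right, summed normalised CPM of 5 marker lists in the same libraries (log scale), with colours for the groups and shapes for the replicates. Col3a1 over Col1a2 is 0.724 in MEF2C replicate 1 and 1.63 to 1.92 in the others, and the bone and granulocyte lists are highest in the same library.

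Type V chains, which are built into type I fibrils and limit their width, had 1 member whose groups did not overlap. Col5a2 (chr1:45374321-45503282, minus strand) gave 47.9, 78.2 and 49.1 CPM in the libraries labelled MEF2C and 47.7, 42.1 and 44.3 CPM in the GFP libraries. The lowest MEF2C library and the highest GFP library were 47.9 and 47.7 CPM, so the separation was narrow, and MEF2C replicate 2 alone stood clear of the rest. The log2 fold change was 0.39 ± 0.19 (edgeR adjusted p = 0.899), and 0.12 without MEF2C replicate 2.

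Col5a1, which encodes the partner chain of Col5a2, gave 11.1, 21.7 and 16.2 CPM in the libraries labelled MEF2C and 13.9, 16.3 and 12.7 CPM in the GFP libraries, with overlapping groups (log2 fold change 0.20 ± 0.25). Col5a3, a less widespread type V chain, gave 4.92, 15.7 and 14.3 CPM against 8.0, 15.0 and 12.5 CPM (log2 fold change -0.02 ± 0.41). Both were lowest in MEF2C replicate 1. Without it the values were 0.40 for Col5a1 and 0.34 for Col5a3, and without MEF2C replicate 2 they were -0.06 and -0.29. Reads of Col5a2 per read of Col5a1 ranged from 2.59 to 4.30, with wide and overlapping intervals.

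Col11a1, a minor fibrillar chain best known from cartilage and tendon, gave 8.03, 13.0 and 2.66 CPM in the libraries labelled MEF2C and 5.04, 1.6 and 3.18 CPM in the GFP libraries. Replicates 1 and 2 of MEF2C were the highest of the 6, and replicate 3 lay inside the GFP range. Its log2 fold change of 1.25 ± 0.60 was the highest of the 20 tested collagen genes (edgeR adjusted p = 0.927). It was 0.68 without MEF2C replicate 2, and with MEF2C replicate 3 alone set against the GFP libraries it was -0.32. Bone markers were also highest in MEF2C replicates 1 and 2 by their sum (394 and 120 CPM). The cartilage sum was 69.7 and 19.4 CPM there, against 18.15 CPM or less elsewhere. Cytl1 alone gave 58.3 and 15.2 CPM of these 2 cartilage sums, and it stood at 16.0 CPM in MEF2C replicate 3. Of the 8 cartilage markers, 5 were highest in MEF2C replicate 1 and 0 in MEF2C replicate 2. Both lists were higher in replicate 1, whereas Col11a1 was higher in replicate 2. Tendon markers were highest in MEF2C replicate 1 (929 CPM) and next in MEF2C replicate 3 (568 CPM). The part of these lists in the Col11a1 values was not tested.

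Col2a1, the fibrillar collagen of cartilage, was too low to be tested and came almost wholly from 1 library. It had 31 counts in MEF2C replicate 1, 1 count in each of MEF2C replicates 2 and 3, 0 in GFP replicates 1 and 2 and 2 in GFP replicate 3. MEF2C replicate 1 thus held 88.6% of its counts. In that library 31 counts were 8.08 CPM of the listed counts, before TMM (exact 95% interval 5.49 to 11.5 CPM), and the upper bounds of the other 5 were at or below 1.85 CPM. The other cartilage collagens did not set that library apart. Col10a1 had 2 counts and Col9a3 had 1, all in it, whereas Col9a1 with 2 counts and Col9a2 with 1 had none there, and Col11a2 had 13 counts there and 14 in GFP replicate 1. The 8 cartilage markers summed to 69.7 CPM in MEF2C replicate 1 and to 13.5 to 19.4 CPM in the others. Of these 8, 5 were highest in MEF2C replicate 1. Cytl1 gave 58.3 CPM of that sum, and Acan stood at 1.30 CPM there and at 0.27 or less elsewhere. Snorc, Cnmd, Hapln1 and Acan had 12, 9, 5 and 5 counts there and 3 or fewer in each other library. Matn1 was at 0 counts in all 6. Sox9 (3.11 CPM in MEF2C replicate 1) was higher in GFP replicates 1 and 2 (5.33 and 3.19 CPM). Matn3 was lowest in MEF2C replicate 1 (0.26 CPM, against 0.48 to 1.78 CPM), on 1 count against 2 to 6. The part of the cartilage markers in the Col2a1 counts was not tested.

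**Figure D4:**
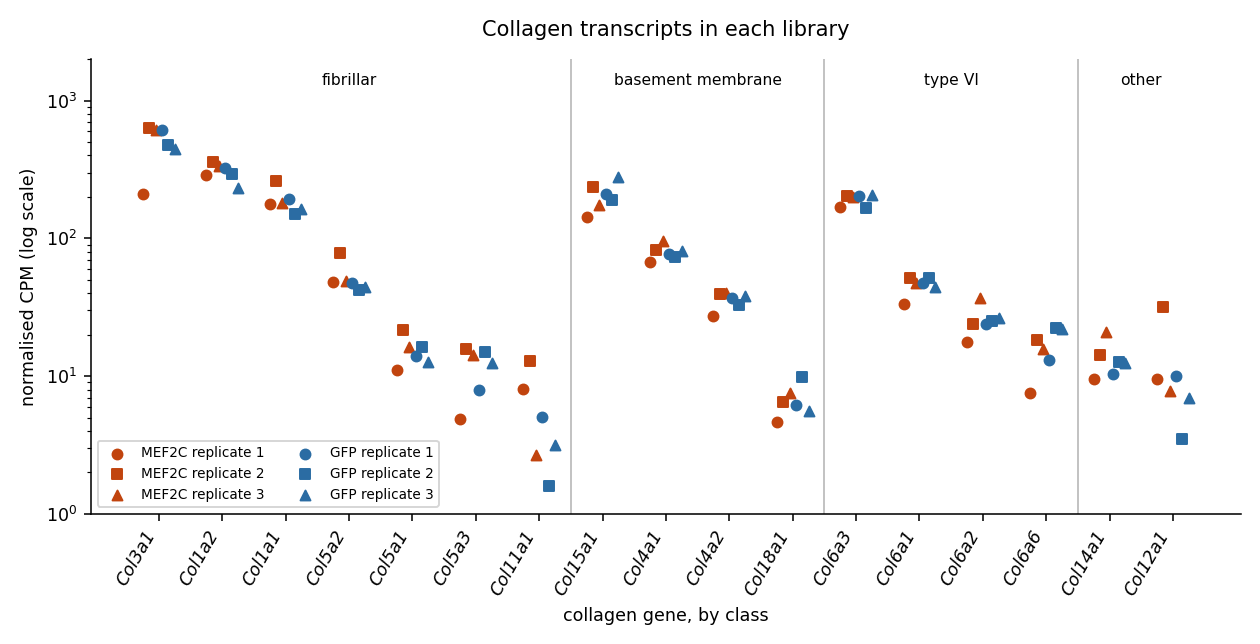
Normalised CPM (vertical axis, log scale) in each library for the 17 collagen genes with a mean of at least 20 counts, ordered within class by mean level; colours show the groups and shapes the replicates. Red and blue points overlap for every gene except Col5a2, and the red circles of MEF2C replicate 1 are the lowest of the 6 for 11 of the 17 genes.

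The summed collagen level followed the same library. All collagen rows together came to 1268, 2116 and 1881 CPM in the libraries labelled MEF2C and to 1879, 1595 and 1655 CPM in the GFP libraries. The group means were 1755 ± 438 and 1709.7 ± 150.0 CPM (SD, n = 3 per group), with the lowest and the highest library both labelled MEF2C. Fibrillar chains made up 55.1% to 65.4% of collagen counts in each library. Col3a1 alone made up 16.5% in MEF2C replicate 1 and 26.7% to 32.7% in the other 5. Without Col3a1, MEF2C replicate 1 was still the lowest library, at 1059 CPM against 1120 to 1484 CPM.

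**Figure D5:**
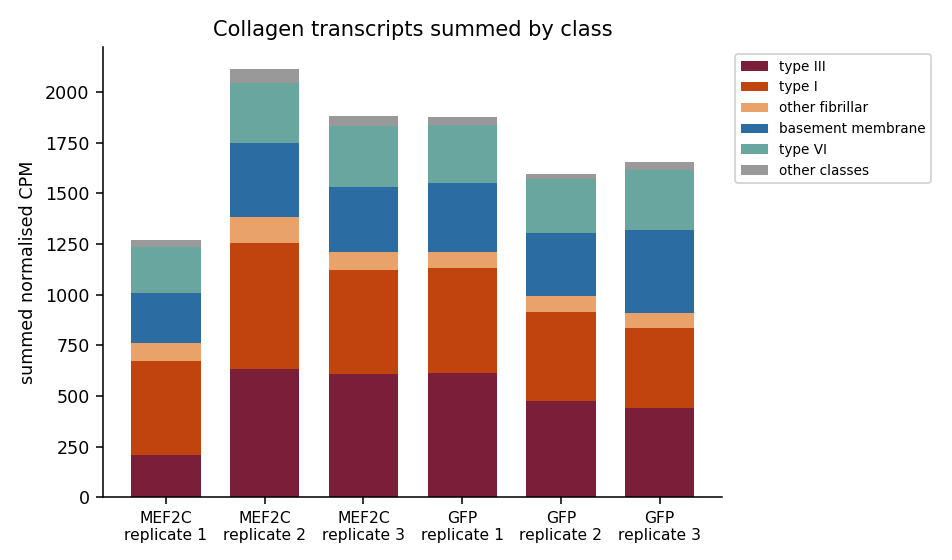
Summed normalised CPM of collagen genes (vertical axis, from 0) in each library (horizontal axis), stacked by class, with types I and III drawn apart from the other fibrillar chains. The total is lowest in MEF2C replicate 1 (1268 CPM) and highest in MEF2C replicate 2 (2116 CPM), and the type III block is 209 CPM in the former and at least 441 CPM in the other 5.

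The low value in MEF2C replicate 1 and the high value in MEF2C replicate 2 recurred over the family. Of the 20 tested collagen genes, 12 were lowest in MEF2C replicate 1 and 10 were highest in MEF2C replicate 2, where 17.9% and 15.7% of all genes tested were. The genes share the libraries and partly the cells they come from, so these counts describe the 2 libraries and are not independent observations.

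Col3a1 was the most abundant collagen by reads, with a mean of 497 CPM over the 6 libraries. Col1a2 (305), Col15a1 (205), Col6a3 (191) and Col1a1 (188) followed. Divided by the length of the longest annotated transcript, Col3a1 again came first, at 89.2 CPM per kilobase. Col1a2 (57.0), Col15a1 (39.6), Col1a1 (31.6), Col6a3 (18.9), Col4a1 (12) and Col6a1 (11.2) followed, so Col6a3 and Col1a1 changed places. Reads aimed at full-length copies need not rise with transcript length, so values and ratios per kilobase may understate long transcripts. By reads, Col3a1, Col1a2 and Col15a1 together held 58.0% of all collagen counts, and the 19 genes with fewer than 120 counts held 1.61%. Transcripts of the tested collagen genes were long, with a median of 6453.5 bases against 3302 for all genes tested, and a loess correction on transcript length called none of them either.

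Col15a1, a basement membrane collagen that carries the precursor of an angiogenesis inhibitor and is found around muscle fibres and capillaries, had the highest level of its class per kilobase. It stood at 144, 234 and 175 CPM in the libraries labelled MEF2C and at 210.4, 189 and 278 CPM in the GFP libraries (chr4:47208161-47313167, plus strand). The groups overlapped although the lowest library was labelled MEF2C and the highest was labelled GFP. Its log2 fold change was -0.29 ± 0.19 (edgeR adjusted p = 0.951), with -0.15 without MEF2C replicate 1 and -0.12 without GFP replicate 3. Col18a1, its relative and the source of endostatin, gave 4.66, 6.47 and 7.50 CPM against 6.22, 9.89 and 5.57 CPM, also overlapping (log2 fold change -0.20 ± 0.31). The Col18a1 value was 0.078 without GFP replicate 2 and -0.37 without GFP replicate 3.

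The Col4a1 and Col4a2 genes encode the chains of the common type IV network and lie head to head on chromosome 8. In GENCODE vM21 their 5′ ends overlap by 22 bases (chr8:11312805-11312826), with Col4a1 on the minus and Col4a2 on the plus strand. Col4a1 gave 67.1, 81.9 and 96.3 CPM in the libraries labelled MEF2C and 76.7, 72.7 and 80.3 CPM in the GFP libraries. Col4a2 gave 27.2, 39.6 and 40.4 CPM and 36.7, 32.9 and 38.2 CPM. For both genes the groups overlapped and MEF2C replicate 1 was the lowest library.

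Their log2 fold changes were close to 0, at 0.09 ± 0.15 for Col4a1 (95% interval -0.23 to 0.42) and -0.01 ± 0.18 for Col4a2 (95% interval -0.39 to 0.37). As single libraries were left out they ranged from -0.041 to 0.21 and from -0.11 to 0.15. Reads of Col4a1 per read of Col4a2 were between 2.07 and 2.47 in all 6 libraries, with group means of 2.31 ± 0.210 and 2.14 ± 0.0681 (SD, n = 3 per group). MEF2C replicate 1, whose Col3a1 ratio stood apart, had 2.47 (95% interval 1.97 to 3.09), inside the intervals of the other libraries.

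Col4a5, on the X chromosome (chrX:141475385-141689234, plus strand), belongs to the type IV network best known from the kidney. It had 5, 11 and 7 counts in the libraries labelled MEF2C and 21, 10 and 12 in the GFP libraries, or 1.30, 2.74 and 1.69 CPM against 6.22, 3.19 and 3.18 CPM. No MEF2C library reached the lowest GFP library by CPM. The log2 fold change was -1.12 ± 0.43 (edgeR adjusted p = 0.808), and it ranged from -1.46 (without MEF2C replicate 2) to -0.74 (without GFP replicate 1) over the alternatives. Its neighbour Col4a6, which starts 1308 bases away on the other strand, had 8 counts in all, and the other head-to-head pair, Col4a3 and Col4a4, had 18 and 30.

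Type VI collagen, whose defects cause congenital muscular dystrophy, held the gene with the smallest spread between libraries. Its highest library was 1.25 times its lowest, the smallest such ratio of the 20 tested collagen genes. This gene, Col6a3 (chr1:90765923-90843971, minus strand), encodes the longest of the main chains and gave 168, 203 and 200 CPM in the libraries labelled MEF2C and 204, 165 and 206 CPM in the GFP libraries. The groups overlapped almost fully, with means of 190 ± 19.6 and 192 ± 23.6 CPM (SD, n = 3 per group). The log2 fold change was -0.01 ± 0.14, with a 95% interval of -0.31 to 0.28 (edgeR adjusted p = 0.998), and ranged from -0.11 to 0.067 as single libraries were left out.

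Col6a1 gave 33.2, 51.8 and 47.7 CPM against 47.4, 51.7 and 44.5 CPM. Col6a2, the chain that assembles with it, gave 17.6, 23.9 and 36.8 CPM against 24, 25.2 and 26.2 CPM. Both were lowest in MEF2C replicate 1, and in Col6a2 MEF2C replicate 3 was the highest of the 6. Their log2 fold changes were -0.11 ± 0.17 and 0.06 ± 0.23, and they were 0.051 and 0.27 without MEF2C replicate 1. Col6a1 was at -0.25 without MEF2C replicate 2 and Col6a2 at -0.28 without MEF2C replicate 3. Reads of Col6a1 per read of Col6a2 were 1.30 in MEF2C replicate 3 and 1.7 to 2.17 in the other 5 libraries. The 95% interval of MEF2C replicate 3 (1.05 to 1.6) lay below that of MEF2C replicate 2 (1.7 to 2.76) and overlapped those of the other 4. Reads of Col6a3 per read of Col6a1 ranged from 3.19 to 5.06, or 1.29 to 2.05 per kilobase.

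Col6a6, an alternative type VI chain, gave 7.51, 18.2 and 15.7 CPM in the libraries labelled MEF2C and 13.0, 22.3 and 22.0 CPM in the GFP libraries. The lowest library was again MEF2C replicate 1 and the 2 highest were GFP libraries, with overlap between 13.0 and 18.2 CPM (log2 fold change -0.47 ± 0.32, edgeR adjusted p = 0.952). The value was -0.18 without MEF2C replicate 1 and -0.72 without MEF2C replicate 2. Col6a4 and Col6a5 were at 0 counts in all 6 libraries.

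Among the other classes, the fibril-associated collagens, which sit on the surface of fibrils, held every tested gene. Col12a1, known from tendon and muscle connective tissue and from a form of myopathy, gave 9.59, 31.6 and 7.74 CPM in the libraries labelled MEF2C and 10.1, 3.51 and 6.89 CPM in the GFP libraries. MEF2C replicate 2 held 47.6% of its counts, and the other 2 of the group lay inside the GFP range. Its log2 fold change was 1.24 ± 0.72 (edgeR adjusted p = 0.936), and it was 0.33 without MEF2C replicate 2 and 0.16 when MEF2C replicate 3 alone stood for its group. Of the 7 adipocyte markers, 6 were also highest in MEF2C replicate 2, with Adipoq at 91.4 CPM there and at 47.2 or less elsewhere. The remaining marker, Car3, was highest in GFP replicate 2 (3992 CPM, against 2671 CPM in MEF2C replicate 2). With Car3, the 7 markers summed to 4015 CPM in MEF2C replicate 2, 4357 CPM in MEF2C replicate 3 and 4618 CPM in GFP replicate 2. Bone markers summed to 120 CPM in MEF2C replicate 2 and to 394 CPM in MEF2C replicate 1, where Col12a1 lay inside the GFP range. The part of either list in the Col12a1 value was not tested.

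Col14a1, a fibril-associated chain of tendon and muscle sheaths, gave 9.59, 14.2 and 21.1 CPM against 10.4, 12.8 and 12.5 CPM, with overlapping groups (log2 fold change 0.34 ± 0.27). Without MEF2C replicate 3 the Col14a1 value was 0.0040, and without MEF2C replicate 1 it was 0.57. Col16a1, which has similar interrupted helices, had 15, 29 and 17 counts in the libraries labelled MEF2C and 8, 8 and 11 in the GFP libraries. On the CPM scale these were 3.89, 7.22 and 4.11 against 2.37, 2.55 and 2.92, so all 3 MEF2C libraries lay above all 3 GFP libraries. The log2 fold change was 0.94 ± 0.37 (edgeR adjusted p = 0.808), with values from 0.60 (without MEF2C replicate 2) to 1.09 (without MEF2C replicate 1) over the alternatives. Col22a1, a chain of the junction between muscle and tendon, had 20, 3 and 12 counts against 14, 3 and 14 and a log2 fold change of -0.03 ± 0.63. Its value ranged from -0.70 to 0.42 as single libraries were left out.

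The 16 collagen genes that were not tested had between 6 and 63 counts in all 6 libraries together, and in none of them did the groups fail to overlap. They comprised 4 fibrillar chains (Col2a1, Col11a2, Col24a1 and Col27a1), 3 basement membrane chains (Col4a3, Col4a4 and Col4a6) and 9 of other classes. Col8a1, a short-chain collagen of vessel walls, was the most abundant of these 9, with 6, 23 and 12 counts in the libraries labelled MEF2C and 6, 6 and 10 in the GFP libraries. Besides Col2a1, the gene with at least 50% of its counts in 1 library was Col7a1, the anchoring fibril collagen of skin, with 3 of 6 counts in GFP replicate 1.

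MEF2 factors bind an A/T-rich site flanked by CTA and TAG. The letters CTA and TAG with any 4 bases between them, a pattern that reads the same on both strands, were searched in the 250 bases before the RefSeq start (GRCm38.p6) of the 28 collagen genes that had an entry. The pattern occurred in 4 of the 28 and in 3.7% of all 27025 genes with an entry. The matches are shown with 10 flanking bases on each side where the window holds them, pattern in capitals, on the strand of the gene. They lie at chr17:34038968-34038997 (Col11a2), chr6:4505591-4505617 (Col1a2), chr3:145292285-145292314 (Col24a1) and chr9:20815240-20815269 (Col5a3, minus strand). The Col1a2 match lies before the RefSeq start but inside the gene as GENCODE vM21 places it (chr6:4504814-4541544).

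Col11a2: ctttgggtcgCTATCTATAGctgggtctat

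Col1a2: tcccgggcccCTAGCCCTAGccctccc

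Col24a1: cccaaatcacCTACAGCTAGgaagtgggta

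Col5a3: gagaggcattCTAGGGCTAGtgggcgtggc

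In none of the 4 were the inner 4 bases all A or T, which holds for 0.592% of all genes with an entry. The 2 of these genes that were tested, Col1a2 and Col5a3, had log2 fold changes of 0.22 ± 0.15 and -0.02 ± 0.41. The other motifs, searched on both strands, were CCAAT, found in 9 of the 28 genes and 37.5% of all, and TATAAA, found in 3 of the 28 (Col3a1 among them) and 14.3% of all. A match describes the letters of the window only.

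The genes that modify, export, cross-link, degrade, bind and induce collagen were read from the same fit. Of 91 such genes in the table, 70 were tested and 45 had a positive log2 fold change, where 52.2% of all genes tested were positive. None was called, and 8 had an unadjusted p under 0.05 (11.4%, against 5.71% of all genes tested), all 8 of them higher in the libraries labelled MEF2C. Without MEF2C replicate 1 the 8 became 4. With library totals in place of TMM they became 13, while the median of all genes tested moved from 0.01 to 0.14. The share of all genes in these settings is not printed here, so the 4 and the 13 stand without their background. The groups did not overlap for 3 of 14 tested genes of modification and folding and 1 of 9 of export and trimming. They did not overlap for 3 of 10 of degradation and 2 of 15 of the inducers, and for 0 in the other lists. Over all genes tested the share was 11.1%. In modification and folding Plod2 was higher and the others lower, and elsewhere all were higher.

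In chain modification and folding, 6 of 14 tested genes were positive. Plod2, the lysyl hydroxylase of the chain ends used for cross-links, gave 3.11, 5.73 and 3.39 CPM in the libraries labelled MEF2C and 0.296, 1.6 and 0.530 CPM in the GFP libraries, without overlap (log2 fold change 2.34 ± 0.55, edgeR adjusted p = 0.274). Its GFP levels in replicates 1 and 3 lie below the level of 3 counts. The prolyl hydroxylase subunit P4ha1 (-0.29 ± 0.16) and the collagen chaperone Fkbp10 (-0.44 ± 0.25) had negative values. Fkbp10 was also without overlap, and lower, at 8.03, 9.21 and 6.05 CPM against 10.07, 11.49 and 10.07 CPM. Serpinh1, the collagen-specific chaperone also called HSP47, gave 204, 369 and 212 CPM against 216, 314 and 299 CPM, with overlapping groups (log2 fold change -0.08 ± 0.26).

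In export and trimming, 5 of 9 tested genes were positive. Pcolce2, an enhancer of procollagen trimming, gave 14.8, 14.7 and 12.6 CPM against 10.7, 7.02 and 9.81 CPM (log2 fold change 0.60 ± 0.23, edgeR adjusted p = 0.808). Bmp1, the protease that trims the C-terminal end, was at 0.21 ± 0.27 and the coat protein gene Sec23a at -0.10 ± 0.14. In cross-linking, 2 of 4 tested genes were positive. Lox, lysyl oxidase, gave 10.1, 4.23 and 11.1 CPM against 5.33, 3.51 and 5.03 CPM, with MEF2C replicate 2 inside the GFP range (log2 fold change 0.86 ± 0.36, edgeR adjusted p = 0.852). Its relatives Loxl1 and Loxl2 were at 0.55 ± 0.36 and -0.13 ± 0.27.

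Among degrading enzymes and their inhibitors, 6 of 10 tested genes were positive. Timp1, an inhibitor of matrix metalloproteinases, gave 14.0, 9.96 and 6.05 CPM against 4.44, 3.83 and 5.30 CPM, without overlap (log2 fold change 1.12 ± 0.33, edgeR adjusted p = 0.641). Mmp14, a membrane-bound collagenase, also did not overlap (0.75 ± 0.33), and Fap, a fibroblast protease, was at 0.56 ± 0.26. Mmp2, a gelatinase, gave 36, 64.2 and 50.6 CPM against 59.0, 53.9 and 61.7 CPM, lowest in MEF2C replicate 1 as Col3a1 was (log2 fold change -0.21 ± 0.19).

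Of the collagen receptors, 6 of 7 tested genes were positive, with the integrin subunits Itga1 at 0.50 ± 0.24 and Itgb1 at 0.40 ± 0.36 and the discoidin receptor Ddr1 at -0.73 ± 0.36. Of the basement membrane partners of type IV collagen, 8 of 11 were positive, with the laminin chains Lama2 at 0.15 ± 0.19, Lamb1 at -0.14 ± 0.17 and Lamb2 at 0.16 ± 0.20. Sparc, a collagen-binding matrix protein, gave 784, 685 and 649 CPM against 617, 730 and 730 CPM (log2 fold change 0.03 ± 0.12). The list of inducers of collagen genes holds genes of transforming growth factor beta and connective tissue growth factor signalling and the platelet-derived growth factor receptors, and 12 of its 15 tested genes were positive. Cyr61 (1.09 ± 0.41), Ctgf (0.80 ± 0.33) and Ltbp1 (0.67 ± 0.31) had the smallest unadjusted p of that list, with edgeR adjusted p between 0.842 and 0.859 and overlapping groups.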

How the data were processed

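The deposited table holds whole-number read counts per gene, per the file headers, for 6 Nanopore PCR-cDNA libraries (3 MEF2C, 3 GFP), and deposited CPM, which the authors scaled to totals of which the listed genes make up 95.6% to 96.4%. The submitters' processing notes list minimap2, DESeq2 1.6.3 and GRCm38 and assign them no role. How reads were counted, on which annotation, with or without strand and after which filter is not given in the sources used here. Without a stated strand, reads of overlapping genes cannot be told apart: 15 of the 20 tested collagen genes overlap another gene in GENCODE vM21, 11 of them on the other strand, and in 3 (Col18a1, Col4a1 and Col4a2) the other gene has counts in the table. The 30 rows naming no gene held 0 counts and were left out. No pair of libraries of a group agreed within sampling noise (chi-square per degree of freedom 4.95 to 10.3).

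Deposited counts were tested with edgeR 4.0.16 (R 4.3.3): filter by group, TMM on the listed totals, robust quasi-likelihood fit on all 9229 genes that passed, Benjamini-Hochberg adjustment and a threshold of 0.05. Standard errors come from the F statistic. Intervals of read ratios are 95% intervals of the ratio of 2 counts, and those of low counts are exact binomial intervals on the listed total. The test was also run on simulated data in which all genes shared the same dispersion and no library stood apart. Those data differ from these libraries in that respect, and nothing is drawn from them here. Alternatives were DESeq2 1.42.0 size factors and its Wald test, limma-voom (limma 3.58.1), library totals, no filter and a stricter filter (1 CPM or more in 3 libraries and 20 or more counts on average), non-robust dispersion, a replicate block, loess on transcript length (span 0.3) and leaving out each library. Loess on GC content and MEF2C replicate 3 alone were added after seeing the data. Lengths and coding sequences are from GENCODE vM21, where 22022 of 22036 identifiers matched. Promoters are from RefSeq.

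Values by library are given for collagen genes with a mean of at least 20 counts and for lower ones with groups that do not overlap or at least 50% of the counts in 1 library; those of Col22a1, Col8a1, Col9a3 and Col10a1 were chosen after they were seen. Of each other list the text names up to 3 genes with the smallest unadjusted p, and Serpinh1, Lox, Mmp2, Timp1 and Sparc. The result of 1 marker gene is not reported here. The collagen genes and all lists were chosen with earlier results of these data known.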

Additional observations from a re-analysis of the deposited data

How the results depend on the processing

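No collagen gene with an adjusted p was called under the 17 alternatives, and the lowest was 0.192 (Col11a1 without MEF2C replicate 3). The stricter filter kept 17 of the 20 genes, and the DESeq2 Wald test gave 7 of the 20 no adjusted p. Of 337 values for the 20 tested genes, 306 kept their direction and 31, over 11 genes, did not; the cause was not tested. Library totals in place of TMM took the all-gene median from 0.01 to 0.14 and the collagen median to 0.16, and the turned values were 0.060 for Col3a1, 0.12 for Col4a2, 0.13 for Col5a3, 0.023 for Col6a1, 0.11 for Col6a3 and 0.081 for Col22a1. With limma-voom Col6a2 turned to -0.0072. When only MEF2C replicate 3 stood for its group, the turned values were -0.32 for Col11a1, 0.054 for Col18a1, 0.24 for Col3a1, 0.15 for Col4a2, 0.26 for Col5a3 and 0.045 for Col6a3, and the basement membrane median was 0.054. In that setting the lone library is assumed to vary as the GFP libraries do.

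Leaving out 1 library at a time gave ranges of -0.32 to 0.28 for Col3a1, -0.041 to 0.21 for Col4a1, -0.11 to 0.15 for Col4a2, -0.061 to 0.40 for Col5a1, -0.29 to 0.34 for Col5a3, -0.25 to 0.051 for Col6a1, -0.28 to 0.27 for Col6a2, -0.11 to 0.067 for Col6a3, -0.37 to 0.078 for Col18a1 and -0.70 to 0.42 for Col22a1. It gave -0.061 to 0.28 for the collagen median, 0.40 to 1.00 for the median of the other classes, 8 to 16 genes with a positive value and 0 to 22 genes called over the whole table.

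The genes with a positive value were 16 of 20 with library totals, 16 of 23 with MEF2C replicate 3 alone and 17 of 36 without a low-count filter, where the median of the other classes was 0.32. Over all genes, 22 were called by the DESeq2 Wald test, 35 without the filter, 3 with the stricter filter and 0 with non-robust dispersion, where 557 had an unadjusted p under 0.05. The labels do not say whether the replicate numbers pair the samples. Deviations of same-numbered libraries correlated at -0.23, 0.05 and -0.25, and those of differently numbered ones at -0.12 to 0.32. With 3 libraries per group these values cannot decide whether samples are paired. A replicate block called 2 genes and no collagen gene. The depth of 3370833 to 3900617 counts leaves 16 of the 36 collagen genes below the filter.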
